A study of Homo sapiens with 10 samples.

Results

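The genes described here encode the subunits of CPSF, the cleavage and polyadenylation specificity factor, and of CSTF, the cleavage stimulation factor, which bind and cut nearly all human pre-mRNAs before the poly(A) tail is added. They were taken by symbol as CPSF1, CPSF2, CPSF3, CPSF4, FIP1L1, WDR33, CSTF1, CSTF2, CSTF3 and the scaffold SYMPK, by a rule that reads no measured value. All 10 were found, at 1 locus each, among 30809 loci that the authors assembled from their RNA-seq reads. The study sequenced polyadenylated RNA of cells labelled HEK293, a human embryonic kidney line (the methods name a derivative of it), in 10 libraries that form 5 groups of 2. LALA nuclear libraries came from a stable line that expresses a myc-tagged, dominant negative form of PABPN1, the protein that coats poly(A) tails in the nucleus, from a tetracycline-responsive promoter, harvested 3 days after doxycycline was withdrawn. siPAP nuclear and siPAP total libraries came from cells treated for 3 days with siRNAs against both canonical poly(A) polymerases, PAPα (gene PAPOLA) and PAPγ (PAPOLG). Control nuclear and control total libraries came from cells given a control siRNA, although for LALA the study's own notes also name untreated parental cells, so in the LALA comparison the mutant protein, its host line and the siRNA treatment of the controls cannot be told apart. Nuclear RNA was the detergent-insoluble nuclear fraction, which keeps chromatin and speckle RNA and loses soluble nuclear material. LALA was measured in nuclear RNA only.

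A human mRNA is given its 3′ end by a multiprotein machine that reads short sequences around the cut. CPSF4 and WDR33 bind the AAUAAA signal upstream of the cut, CPSF1 holds them in place, and FIP1L1 bridges this module to poly(A) polymerase. CPSF3 is the endonuclease, CPSF2 its catalytically inactive partner, and SYMPK the scaffold that carries both. CSTF1, CSTF2 and CSTF3 form the complex that binds the G/U-rich element downstream of the cut. The enzymes that the study depleted act directly after the factors described here, and the comparisons below ask whether the mRNAs of the cleavage machinery itself differed when poly(A) polymerase was depleted or mutant PABPN1 was expressed.

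Each value is FPKM (sequenced fragments per kilobase of transcript, scaled to the number mapped), given by the authors as the mean over both libraries of a group. Values of single libraries were not in the table, so no SD was computed and no test was run here. The test columns that the authors deposited beside the means were not used, and whether a difference exceeds the spread between libraries is therefore not judged for any gene. Differences are therefore ratios of mean FPKM, called higher or lower at 1.5-fold and read beside the same count over all loci with at least 1 FPKM in either group. The knockdown was seen in the targeted genes: PAPOLA had 11.2 FPKM in siPAP nuclear and 61.7 FPKM in control nuclear RNA, and 11.0 FPKM in siPAP total and 79.3 FPKM in control total RNA. PAPOLG had 4.46 and 10.6 FPKM in siPAP and control nuclear RNA, and 3.64 and 12.2 FPKM in siPAP and control total RNA. The locus that holds PABPN1, merged with BCL2L2, had 162 FPKM in LALA nuclear, 99.6 FPKM in siPAP nuclear and 89.1 FPKM in control nuclear RNA. Of the markers of this line, VIM (230.1 to 352 FPKM over the 5 groups), CDH2 and NEFL (9.25 to 19.3 FPKM) were present, LHX1 and INA were low (at most 2.30 and 1.46 FPKM), and PAX2 and NEFM were below 0.5 FPKM in every group. ALB, PTPRC, HBB and CDH5, which mark other cell types, were at or near 0, and COL1A1 lay between 1.51 and 1.94 FPKM. Several of these markers were past 1.5-fold of control. CDH2 was at 0.337-fold in siPAP nuclear and 0.417-fold in siPAP total RNA, and NEFL at 0.589-fold in siPAP nuclear and 0.585-fold in siPAP total RNA. INA was at 1.51-fold in LALA nuclear RNA. The locus named LHX1 alone was at 0.722-fold in LALA nuclear, 0.927-fold in siPAP nuclear and 0.986-fold in siPAP total RNA. A second locus, named for LHX1 and for its own assembly number, was assembled over the same span. It was at 1.89-fold in LALA nuclear, 3.51-fold in siPAP nuclear and 3.27-fold in siPAP total RNA. Whether this second locus holds LHX1 mRNA was not tested. The part of these differences in any result here was not tested. Ratios between bulk samples do not separate fewer RNA molecules per cell from fewer cells that carry them.

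All members were expressed in every group, and CSTF3 stood above the rest. CSTF3 had 242 FPKM in LALA nuclear, 246 FPKM in siPAP nuclear, 183 FPKM in control nuclear, 170.2 FPKM in siPAP total and 130.7 FPKM in control total RNA. CSTF3 was 4.28 times the next highest member in LALA nuclear, 4.78 times in siPAP nuclear, 2.89 times in control nuclear, 2.78 times in siPAP total and 1.79 times in control total RNA. In control total RNA the order by mean FPKM was CSTF3, CPSF3, FIP1L1, WDR33, CSTF2, CSTF1, CPSF2, CPSF4, CPSF1 and SYMPK. FIP1L1 and CPSF3 exchanged places 2 and 3 between groups, WDR33 and CSTF2 exchanged places 4 and 5 in LALA nuclear RNA, and CSTF1 was sixth in every group. SYMPK was at place 9 in LALA nuclear, 7 in siPAP nuclear and 8 in siPAP total RNA, but at place 10 in both control groups. Without a spread, no pair of neighbours in this order can be said to differ. The median member had 32.7 FPKM in control nuclear and 34.2 FPKM in control total RNA. In each of these groups, the loci with at least 1 FPKM in that group had a median of 13.3 FPKM.

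**Figure D1:**
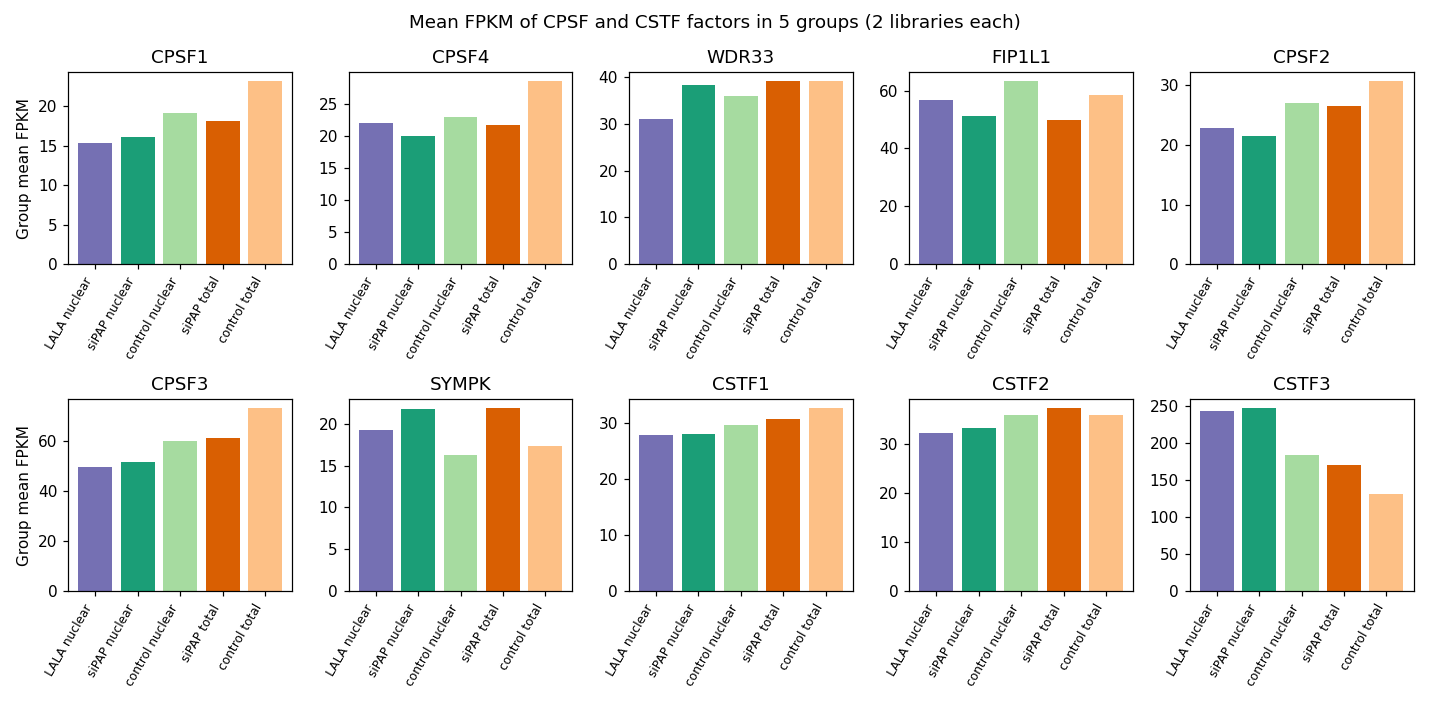
Mean FPKM (y axis, linear from 0) of each of the 10 genes in the 5 groups (x axis), 1 bar per group mean over 2 libraries, with no error bars because values of single libraries were not in the table. CSTF3 and SYMPK had taller siPAP bars than control bars in both fractions, as had WDR33 by less (1.00-fold in total and 1.06-fold in nuclear RNA). CPSF1, CPSF4, FIP1L1, CPSF2, CPSF3 and CSTF1 had shorter ones.

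The factors process their own transcripts as well, and the signal that CPSF4 and WDR33 read is shown here for the members where the last 40 bases of the canonical GENCODE transcript held AATAAA or ATTAAA on the transcript strand and where the assembled locus reached that 3′ end. Capitals mark the signal, with 12 genomic bases on each side, 5′ to 3′, from GRCh37, the sequence of hg19.
CPSF4, chr7:99054966-99054995, plus strand: tttatgaaatggATTAAAgcttgtttttta
CPSF3, chr2:9613191-9613220, plus strand: tttgttacctaaAATAAAatgcattcgttt
CSTF1, chr20:54981386-54981415, plus strand: cgtgatttctgaAATAAActttatatacaa
CSTF2, chrX:100096475-100096504, plus strand: tgctcaagatgaAATAAAaacagaaatcaa
CSTF3, chr11:33106132-33106161, minus strand: agtcctttaaaaAATAAAaggattcagaaa
Of the 10 members, 6 had AATAAA in this window, 1 (CPSF4) had ATTAAA only, and CPSF1, FIP1L1 and SYMPK had neither. Of 19893 canonical coding transcripts searched in the same way, 62.1% held AATAAA, 17.2% held ATTAAA and 76.0% held at least either. The share with ATTAAA includes transcripts that also held AATAAA, so it is not the like measure for CPSF4. A match is a description of these letters, not evidence of use. WDR33 and CPSF2 also had AATAAA, but their canonical 3′ ends lay 3206 and 7946 bases outside the assembled locus, so their FPKM may cover only part of the 3′ UTR.

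In the polyadenylation specificity module, 3 of 4 mRNAs lay below control in both siPAP comparisons, and none passed 1.5-fold. The median of all measured loci also lay below control in both, so this count is not a result about the module. CPSF1, the large scaffold (assembled locus on chromosome 8, 145597730 to 145635322, hg19), had 15.3 FPKM in LALA nuclear, 16.1 FPKM in siPAP nuclear, 19.2 FPKM in control nuclear, 18.1 FPKM in siPAP total and 23.2 FPKM in control total RNA. The LALA and siPAP groups were all below their control, at 0.798-fold for LALA nuclear, 0.836-fold for siPAP nuclear and 0.780-fold for siPAP total. CPSF4, the zinc finger subunit that contacts the AAUAAA signal (chromosome 7, 98972297 to 99063824), had 22.1 FPKM in LALA nuclear, 20.0 FPKM in siPAP nuclear, 22.9 FPKM in control nuclear, 21.7 FPKM in siPAP total and 28.5 FPKM in control total RNA. Its ratio was 0.762-fold in siPAP total RNA, the lowest of any member in any comparison with control, and 0.961-fold in LALA nuclear RNA. WDR33, the WD40 subunit that shares signal recognition with CPSF4 (chromosome 2, 128461807 to 128568761), had 31.1 FPKM in LALA nuclear, 38.2 FPKM in siPAP nuclear, 36.1 FPKM in control nuclear, 39.2 FPKM in siPAP total and 39.1 FPKM in control total RNA. It was level between siPAP and control total RNA (1.00-fold), at 1.06-fold in siPAP nuclear and at 0.862-fold in LALA nuclear RNA. FIP1L1, which binds U-rich RNA and poly(A) polymerase (chromosome 4, 54243738 to 54457753), had 56.6 FPKM in LALA nuclear, 51.3 FPKM in siPAP nuclear, 63.3 FPKM in control nuclear, 49.8 FPKM in siPAP total and 58.5 FPKM in control total RNA. FIP1L1 was thus at 0.895-fold of control in LALA nuclear, 0.811-fold in siPAP nuclear and 0.851-fold in siPAP total RNA. The median log2 ratio of the 4 was -0.19 in LALA nuclear RNA, beside -0.16 over all measured loci. It was -0.23 in siPAP nuclear RNA, beside -0.09, and -0.30 in siPAP total RNA, beside -0.06.

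In the cleavage module, the nuclease pair and the scaffold that holds it lay on opposite sides of control. CPSF3, the endonuclease (chromosome 2, 9563665 to 9613239), had 49.7 FPKM in LALA nuclear, 51.5 FPKM in siPAP nuclear, 59.8 FPKM in control nuclear, 61.1 FPKM in siPAP total and 72.9 FPKM in control total RNA. CPSF2, its inactive partner (chromosome 14, 92588297 to 92630543), had 22.8 FPKM in LALA nuclear, 21.5 FPKM in siPAP nuclear, 27.0 FPKM in control nuclear, 26.5 FPKM in siPAP total and 30.7 FPKM in control total RNA. Both were below control in all 3 comparisons, as was the median of all measured loci. CPSF3 was at 0.831-fold in LALA nuclear, 0.861-fold in siPAP nuclear and 0.839-fold in siPAP total RNA, and CPSF2 at 0.844-fold in LALA nuclear, 0.794-fold in siPAP nuclear and 0.862-fold in siPAP total RNA. SYMPK, the scaffold (chromosome 19, 46318699 to 46366548), had 19.2 FPKM in LALA nuclear, 21.7 FPKM in siPAP nuclear, 16.2 FPKM in control nuclear, 21.8 FPKM in siPAP total and 17.3 FPKM in control total RNA. SYMPK was above control each time, at 1.18-fold in LALA nuclear, 1.34-fold in siPAP nuclear and 1.26-fold in siPAP total RNA. The ratio of SYMPK to CPSF3 within a group was accordingly 0.386 in LALA nuclear and 0.421 in siPAP nuclear against 0.271 in control nuclear RNA, and 0.357 in siPAP total against 0.238 in control total RNA. SYMPK over CPSF2 was 0.841 in LALA nuclear and 1.01 in siPAP nuclear against 0.599 in control nuclear RNA, and 0.825 in siPAP total against 0.564 in control total RNA. CPSF2 over CPSF3, the ratio of the paralogous pair, lay between 0.417 and 0.459 in all 5 groups. These ratios were chosen after the levels were seen.

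In the CSTF complex, CSTF3 lay above control after both treatments but short of 1.5-fold, while CSTF1 and CSTF2 were nearer to control. CSTF1, a WD40 subunit (chromosome 20, 54967424 to 54981661), had 27.8 FPKM in LALA nuclear, 28.0 FPKM in siPAP nuclear, 29.5 FPKM in control nuclear, 30.7 FPKM in siPAP total and 32.5 FPKM in control total RNA. CSTF2, which contacts the downstream element through its RNA recognition motif (chromosome X, 100075309 to 100129334), had 32.2 FPKM in LALA nuclear, 33.2 FPKM in siPAP nuclear, 35.9 FPKM in control nuclear, 37.3 FPKM in siPAP total and 35.9 FPKM in control total RNA. Their ratios to control ran from 0.942 to 0.950 for CSTF1 and from 0.897 to 1.04 for CSTF2 over the 3 comparisons. CSTF3, the dimeric scaffold of the complex (chromosome 11, 33060779 to 33183074), was at 1.32-fold of control in LALA nuclear, 1.35-fold in siPAP nuclear and 1.30-fold in siPAP total RNA, from the levels given above. Against its partner CSTF1, CSTF3 stood at 8.71 in LALA nuclear and 8.80 in siPAP nuclear against 6.21 in control nuclear RNA, and at 5.55 in siPAP total against 4.02 in control total RNA. CSTF3 over CSTF2 was 7.53 in LALA nuclear and 7.42 in siPAP nuclear against 5.10 in control nuclear RNA, and 4.57 in siPAP total against 3.64 in control total RNA. CSTF2 over CSTF1 stayed between 1.10 and 1.22 in the 5 groups.

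**Figure D2:**
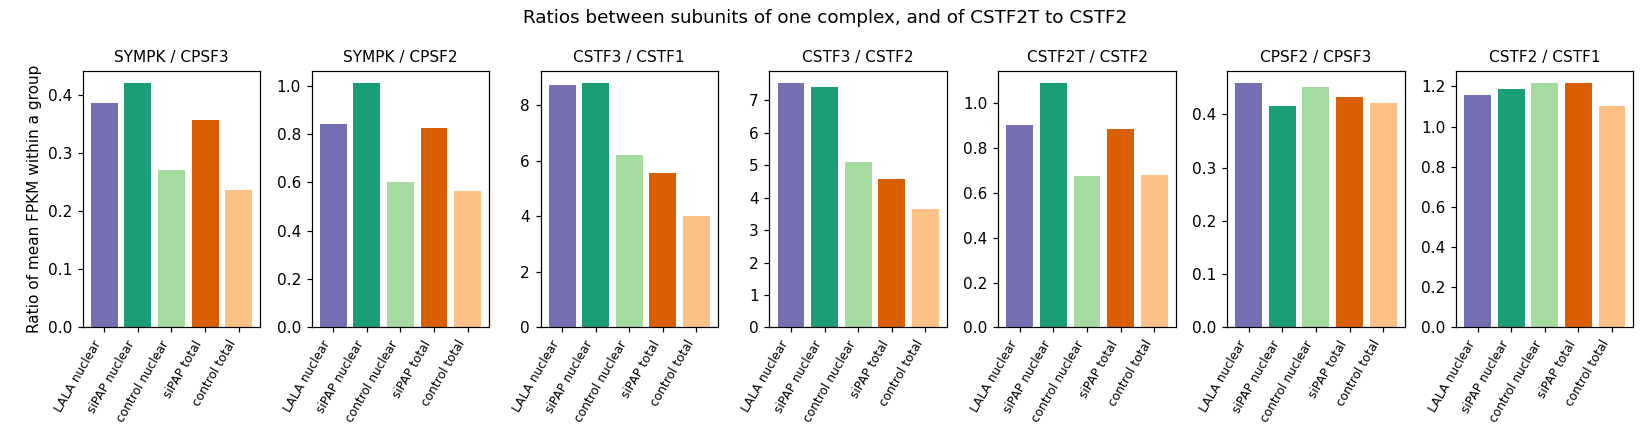
Ratio of mean FPKM between members within each group (y axis, linear from 0), with CSTF2T over CSTF2 added, for the 5 groups on the x axis. Bars are ratios of group means without error. SYMPK over CPSF3 or CPSF2 and CSTF3 over CSTF1 or CSTF2 were higher in each siPAP or LALA group than in the control group of the same fraction, while CPSF2 over CPSF3 stayed between 0.417 and 0.459.

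GENCODE holds CSTF3 transcripts of different structure. Models other than the canonical one were read for CSTF3 only, so the other members may have them too. The canonical GENCODE model of CSTF3 has 21 exons, while other CSTF3 models of 2 and 3 exons end inside the long transcription unit (chromosome 11, GRCh37, minus strand, 3′ ends at 33163011 and 33162512). Short CSTF3 RNAs that end at an intronic poly(A) site are known in vertebrates. The deposited gene-level FPKM would add such RNAs, where present, to the full-length mRNA, so the share of each in the 1.30-fold to 1.35-fold difference was not measured. The locus also spans TCP11L1, which was assembled apart and had 13.7 FPKM in LALA nuclear, 14.9 FPKM in siPAP nuclear, 14.1 FPKM in control nuclear, 16.8 FPKM in siPAP total and 17.0 FPKM in control total RNA. TCP11L1 lay between 0.972-fold and 1.06-fold of control. The canonical models of the members have 6 (CSTF1) to 38 (CPSF1) exons, with a median of 18, and SYMPK has 27.

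Across the members as a set, no mRNA reached 1.5-fold in any comparison with control, where such ratios were common among all loci. In siPAP total against control total RNA, 0 of 10 were at least 1.5-fold higher and 0 lower, beside 9.55% and 7.14% of 13318 loci. In siPAP nuclear against control nuclear RNA the counts were 0 and 0, beside 11.3% and 8.18% of 13636 loci. In LALA nuclear against control nuclear RNA they were 0 and 0, beside 11.5% and 5.03% of 13880 loci. With 10 genes, a count of 0 is near these shares and is not a result about the members. At a lower threshold of 0.32 on the log2 scale, SYMPK and CSTF3 were higher in siPAP total (2 of 10, beside 16.5% of loci) and in siPAP nuclear RNA (2 of 10, beside 17.6%), and CSTF3 was higher in LALA nuclear RNA (1 of 10, beside 16.0%). On the low side of the same threshold stood CPSF1 and CPSF4 in siPAP total (2 of 10, beside 20.0%), CPSF2 in siPAP nuclear (1 of 10, beside 22.5%) and CPSF1 in LALA nuclear RNA (1 of 10, beside 25.2%). These shares are near those of all loci.

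The median log2 ratio of the members against control was -0.16 in LALA nuclear RNA, beside -0.16 over all measured loci, -0.16 in siPAP nuclear RNA, beside -0.09, and -0.15 in siPAP total RNA, beside -0.06. In the LALA comparison the median locus thus lay 0.16 below control on the log2 scale, while 11.5% of loci were at least 1.5-fold higher. Relative to the median locus the member median was 0.0030. CSTF3 then lay at 0.57, SYMPK at 0.41, CPSF1 at -0.16, CPSF3 at -0.11, CPSF2 at -0.08 and WDR33 at -0.05, while CPSF4 (-0.06 before and 0.10 after centring), CSTF1 (-0.08 and 0.08), FIP1L1 (-0.16 and 0.0015) and CSTF2 (-0.16 and 0.0046) turned from below 0 to above it. In siPAP nuclear RNA CSTF1 was the only member to turn sign on centring, at -0.07 before and 0.01 after. SYMPK and CSTF3 kept a positive sign in all 3 comparisons under this scaling, with 81.9% to 85.5% of measured loci below SYMPK and 85.6% to 85.7% below CSTF3. CPSF1, CPSF2 and CPSF3 kept a negative one. Among 6600 to 6669 loci between 10 and 250 FPKM in both groups of a comparison, a window set after the members' levels were known, the central 90% of log2 ratios ran from -0.53 to 0.21 in LALA nuclear, from -0.51 to 0.40 in siPAP nuclear and from -0.48 to 0.40 in siPAP total RNA. SYMPK lay above that range in LALA nuclear (0.24) and siPAP nuclear RNA (0.42) and inside it in siPAP total RNA (0.33). CSTF3 did likewise, at 0.40 in LALA nuclear, 0.43 in siPAP nuclear and 0.38 in siPAP total RNA. The other 8 members lay inside it each time. With 10 members, 8 inside a 90% range is near the share of the window's loci and is not a result about the members. Over all measured loci, all 10 members lay inside the central 90% in each comparison with control. The nuclear comparisons share their control libraries, so like values in LALA and siPAP nuclear RNA are not independent of each other.

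**Figure D3:**
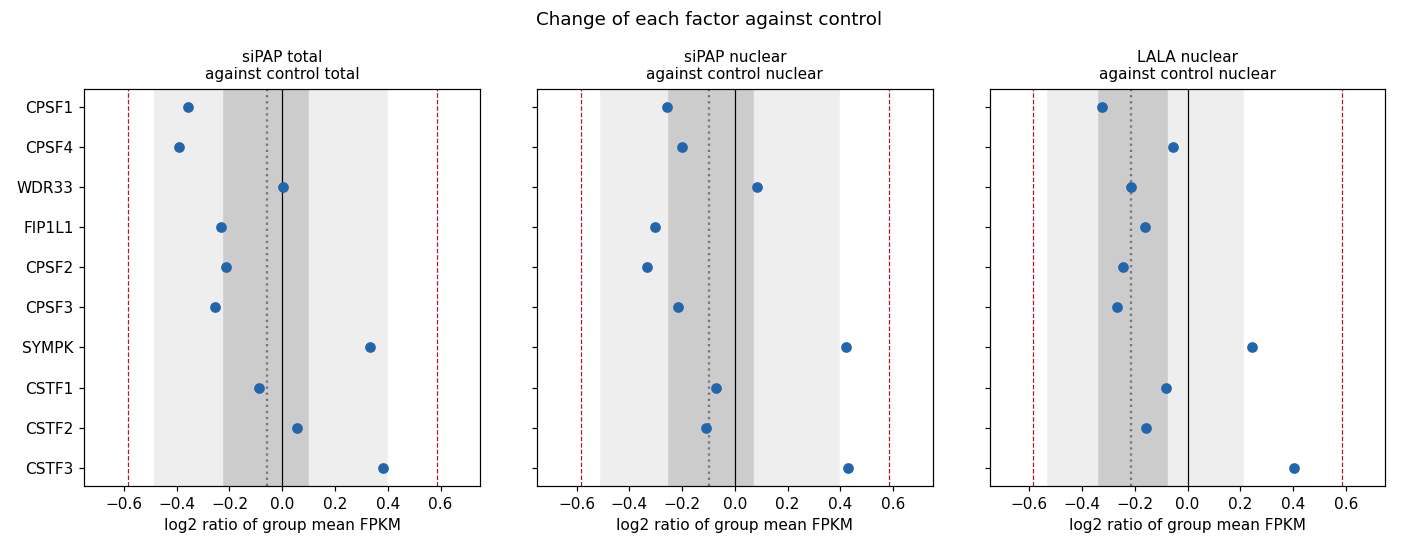
log2 ratio of group mean FPKM (x axis) for each member (rows), with a panel each for siPAP total, for siPAP nuclear and for LALA nuclear RNA, against the control of that fraction. Dark and light bands are the middle 50% and 90% of loci between 10 and 250 FPKM, the dotted line their median, and dashed lines mark 1.5-fold. SYMPK and CSTF3 are the members right of the light band in both nuclear panels, and no member reaches a dashed line. Every member lay inside the middle 90% of all measured loci, which is not drawn.

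Between LALA and siPAP nuclear RNA the members' ratios lay from 0.814-fold to 1.10-fold. In LALA nuclear against siPAP nuclear RNA, 0 of 10 were at least 1.5-fold higher and 0 lower, beside 7.45% and 5.28% of 13967 loci, with a member median of -0.04 on the log2 scale and -0.06 over all loci. The widest difference was that of WDR33, at 31.1 FPKM in LALA nuclear and 38.2 FPKM in siPAP nuclear RNA (0.814-fold). SYMPK followed at 0.884-fold, and CPSF4 and FIP1L1 were at 1.10-fold each. CSTF3 was at 0.984-fold and CSTF1 at 0.993-fold.

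Nuclear and total RNA were compared within a treatment to see which mRNAs weighed more in the insoluble nuclear fraction. FPKM is relative within a library, so these ratios are not shares of molecules in the nucleus. Among the fraction marks, MALAT1 was at a log2 ratio of 0.32 in control nuclear against control total RNA, NEAT1 at -0.27, ACTB at -0.19 and RPL30 at -0.52. The nuclear noncoding RNAs among them also differed from control, NEAT1 at 3.15-fold in LALA nuclear, 2.74-fold in siPAP nuclear and 2.52-fold in siPAP total RNA and MALAT1 at 2.06-fold in LALA nuclear RNA. In control RNA NEAT1 lay below total RNA, like ACTB and RPL30, so these marks did not all separate the fractions. The paper describes MALAT1 as lacking a poly(A) tail, while these libraries were made from polyadenylated RNA. CSTF3 had 246 FPKM in siPAP nuclear and 170.2 FPKM in siPAP total RNA (1.45-fold), and 183 FPKM in control nuclear and 130.7 FPKM in control total RNA (1.40-fold). It was the only member past 0.32 in size on the log2 scale in either comparison, and 93.5% of measured loci lay below it in siPAP and 87.5% in control RNA. At 1.5-fold, 0 of 10 members were higher and 0 lower, beside 4.86% and 1.40% of 13424 loci in siPAP RNA and 8.57% and 1.64% of 13001 loci in control RNA. At 0.32 on the log2 scale the member counts were 1 higher and 0 lower in siPAP RNA, beside 18.1% and 8.96% of loci, and 1 and 0 in control RNA, beside 20.1% and 9.86%. FIP1L1 was also above total RNA, at 1.03-fold in siPAP and 1.08-fold in control RNA. CPSF2 was the lowest member in siPAP RNA (21.5 FPKM in nuclear and 26.5 FPKM in total RNA, 0.812-fold) and CPSF4 in control RNA (22.9 FPKM in nuclear and 28.5 FPKM in total RNA, 0.805-fold). The nuclease CPSF3 was at 0.843-fold in siPAP and 0.821-fold in control RNA. SYMPK, which stood with CSTF3 against control, did not stand with it here, at 0.995-fold in siPAP and 0.936-fold in control RNA. The member median was -0.13 in both comparisons, beside -0.02 over all loci in each.

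**Figure D4:**
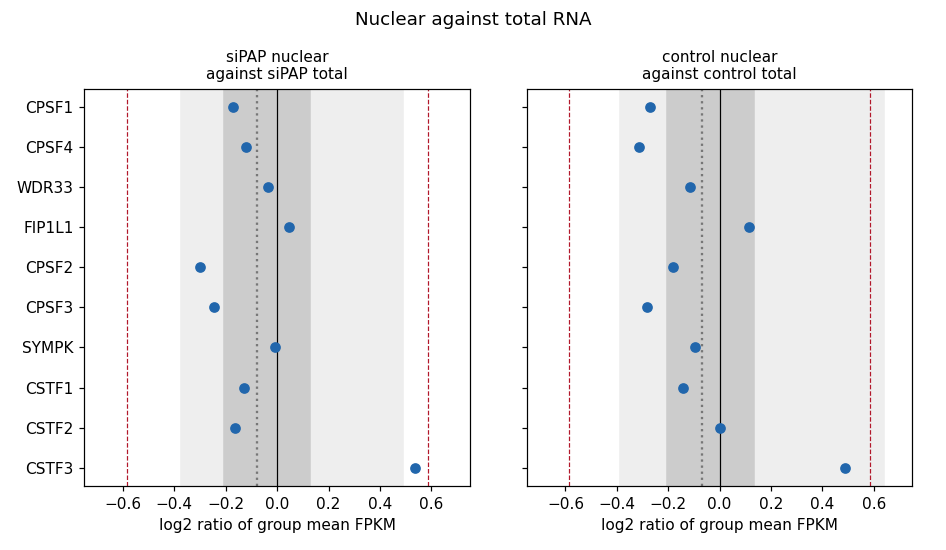
log2 ratio of group mean FPKM in nuclear against total RNA (x axis) for each member (rows), in siPAP cells (left) and in control cells (right), with bands and lines drawn as for the comparisons with control. CSTF3 sits far right of the other members in both panels, at 0.53 in siPAP and 0.49 in control RNA, and to the right of the light band in siPAP RNA.

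The loci whose 5 group means were most like those of the members with the widest range, CSTF3 and CPSF1, were found among 8701 named loci with at least 5 FPKM in every group, by Euclidean distance between log2 means centred per locus. Nearest to CSTF3 were RRP7B (distance 0.081), a ribosomal RNA processing 7 pseudogene, the immediate early gene IER3 (0.149) and ALG10B (0.175), a glucosyltransferase of N-glycan assembly. RRP7B had 13.7 FPKM in LALA nuclear, 13.2 FPKM in siPAP nuclear, 10.4 FPKM in control nuclear, 9.46 FPKM in siPAP total and 7.53 FPKM in control total RNA. Nearest to CPSF1 were TACO1 (0.028), a translational activator of mitochondrial COX1, KCTD3 (0.038) and ASNSD1 (0.048). TACO1 had 16.7 FPKM in LALA nuclear, 18.0 FPKM in siPAP nuclear, 21.0 FPKM in control nuclear, 19.9 FPKM in siPAP total and 25.6 FPKM in control total RNA.

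None of the 3 measured paralogs of the members reached 1.5-fold against control, and CSTF2T and CPSF3L came nearest. A count over 3 loci cannot be set apart from the shares over all loci given above. CSTF2T, the autosomal paralog that can stand in for CSTF2, had 29.0 FPKM in LALA nuclear, 36.2 FPKM in siPAP nuclear, 24.2 FPKM in control nuclear, 33.0 FPKM in siPAP total and 24.4 FPKM in control total RNA. Its log2 ratio to control was 0.26 in LALA nuclear, beside -0.16 for CSTF2 itself, 0.58 in siPAP nuclear, beside -0.11, and 0.43 in siPAP total RNA, beside 0.06. CSTF2T over CSTF2 within a group was 0.900 in LALA nuclear and 1.09 in siPAP nuclear against 0.674 in control nuclear RNA, and 0.886 in siPAP total against 0.681 in control total RNA. CPSF3L, now named INTS11, is the paralog of CPSF3 that cuts RNA in the Integrator complex. CPSF3L had 10.2 FPKM in LALA nuclear, 9.42 FPKM in siPAP nuclear, 13.9 FPKM in control nuclear, 9.81 FPKM in siPAP total and 14.5 FPKM in control total RNA. Its log2 ratio was -0.45 in LALA nuclear and -0.56 in both siPAP nuclear and siPAP total RNA. INTS9, the paralog of CPSF2, was at -0.30 in LALA nuclear, 0.04 in siPAP nuclear and 0.05 in siPAP total RNA, and CPSF4L was listed at 0 in every group.

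The wider 3′ end processing lists are counted at 1.5-fold beside the shares over all loci. Those shares were 11.5% higher and 5.03% lower in LALA nuclear, 11.3% and 8.18% in siPAP nuclear, and 9.55% and 7.14% in siPAP total RNA. Lists of 6 to 14 loci are too short to be set apart from these shares, so the counts are not results about the lists. The Integrator list counts CPSF3L and INTS9 again. Of 7 loci for cleavage factors I and II and RBBP6, 1 was higher in each comparison with control, a second locus named PCF11 that was assembled over the same span as the main one. This locus had 22.3 FPKM in LALA nuclear, 10.1 FPKM in siPAP nuclear, 4.66 FPKM in control nuclear, 8.49 FPKM in siPAP total and 3.68 FPKM in control total RNA. Assembly numbers restart by position within its chromosome. The second locus falls in the run that holds CSTF3, a minus-strand gene, and the main PCF11 locus in the earlier run. The second locus thus appears to lie on the strand opposite the main one, and whether it holds PCF11 mRNA was not tested. The main PCF11 locus was at a log2 ratio of -0.08 in LALA nuclear, 0.49 in siPAP nuclear and 0.47 in siPAP total RNA, and RBBP6, a ubiquitin ligase of the complex, at 0.10 in LALA nuclear, 0.42 in siPAP nuclear and 0.58 in siPAP total RNA. Of 14 Integrator loci, INTS2 was 1.5-fold lower in siPAP nuclear (12.02 FPKM, against 19.8 FPKM in control nuclear) and in siPAP total RNA (10.4 FPKM, against 15.7 FPKM in control total), and 0 passed in LALA nuclear RNA, where INTS1 was the lowest at -0.55. Of 12 measured phosphatase and termination factor loci 0 passed in any of the 3, and the farthest from 0 were PPP1CA, a phosphatase catalytic subunit, at a log2 ratio of -0.51 and WDR82 at -0.45, both in LALA nuclear RNA. Of 6 histone pre-mRNA 3′ processing loci 0 passed, and the farthest from 0 were SLBP, the stem-loop binding protein, at -0.34 and ZNF473 at 0.33, again in LALA nuclear RNA.

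**Figure D5:**
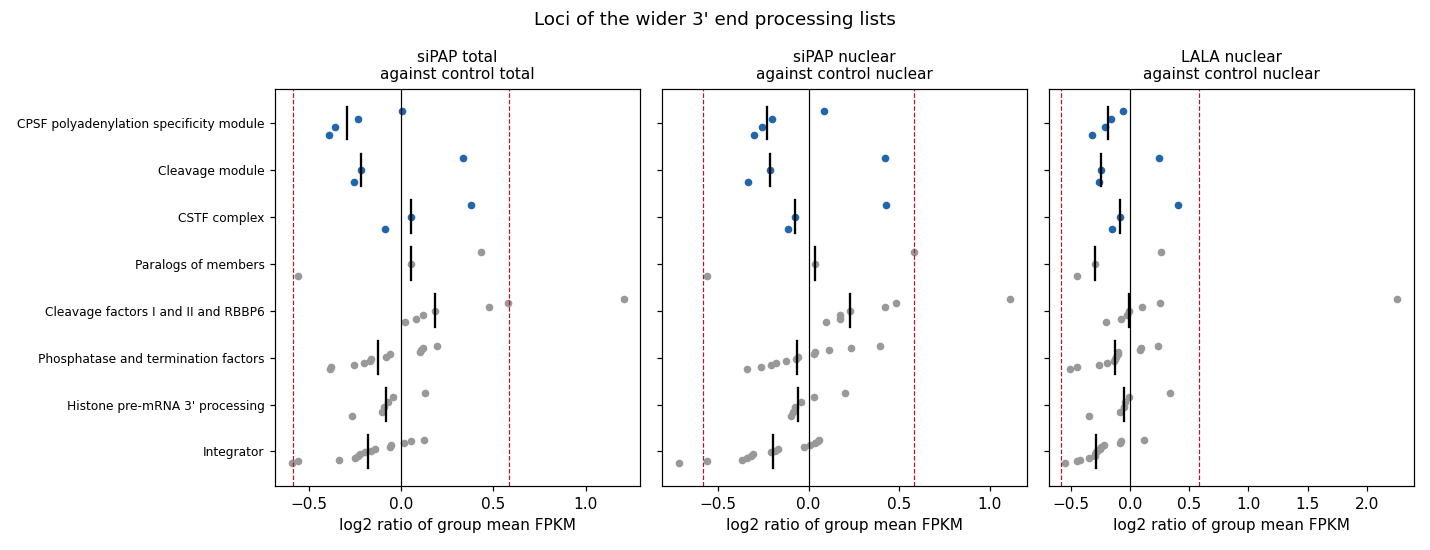
log2 ratio of group mean FPKM (x axis) of each measured locus of the lists (rows), against the control of its fraction, with member modules in blue and other lists in grey. Vertical ticks are list medians and dashed lines mark 1.5-fold. No blue point reaches a dashed line, and the point farthest right in each panel is the second locus named PCF11.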

How the data were processed

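Polyadenylated RNA was sequenced in 10 libraries, grouped by their labels into 5 groups of 2. The authors mapped paired-end reads of stranded libraries with TopHat2 to hg19, assembled loci with Cufflinks and deposited Cuffdiff's mean FPKM of each group in a table of 10 pairs of groups. The sources used here do not give the depth of any library, and neither intervals nor detection limits were computed. The table's columns with the authors' fold changes, test statistics and p-values were not used.

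Ratios of mean FPKM were computed without a pseudocount in Python 3.11.15 (numpy 2.4.6, pandas 2.3.3), over loci above 0 in both groups and at or over 1 FPKM in at least 1 of them, for 6 comparisons. The calculation was tested on simulated data. Plots were drawn with matplotlib 3.10.9. Gene models came from GENCODE on GRCh37. Per locus the assembly's span can take in neighbouring genes, and of 26 other loci at or within 5000 bases of a member, 11 overlapped a member's span. The members and lists were chosen with earlier results of these data known. The text names all members, in each list the loci past 1.5-fold against control or else the 2 farthest from 0, the targeted genes, the fraction marks, and the 3 loci nearest to each of the 2 members with the widest range. INTS9, CPSF4L, INTS1, RBBP6, the main PCF11 locus, loci beside members and the ratios within groups were added after their values were seen. Alternatives were a pseudocount of 0.1 or 1 FPKM, no filter or 5 FPKM, centring on all measured loci, single-symbol loci only, and thresholds of 0.32 on the log2 scale and of 2-fold.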

Additional observations from a re-analysis of the deposited data

How the results depend on the processing

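A pseudocount of 0.1 or 1 FPKM, no filter on low values, a minimum of 5 FPKM and loci named for 1 member alone each left all 60 member log2 ratios within 0.1 of the value given, and all counts at 0. Centring on all measured loci moved 10 of 60 member ratios by more than 0.1, all in LALA nuclear against control nuclear RNA, and set the member median of that comparison at 0.0030 in place of -0.16. At the lower threshold of 0.32 on the log2 scale, 2 members were higher in siPAP total and 2 in siPAP nuclear RNA against control, 1 in LALA nuclear RNA, and 1 each in control nuclear against control total and siPAP nuclear against siPAP total RNA. Lower were 2 members in siPAP total RNA, 1 in siPAP nuclear RNA and 1 in LALA nuclear RNA. At 2-fold all counts stayed at 0. No paired analysis was possible because the deposited table holds group means only, and for the same reason no library could be left out and no spread between libraries, batch or depth could be examined. The authors' deposited test columns were not used, so the differences given here carry no replicate check of their own. For single members they were at most 1.45-fold, and some other loci differed more.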

Other observations

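Some loci beside the members differed from control more than the members did, and they are given as values chosen after they were seen. ADCK5, a kinase-like gene within the assembled span of CPSF1, had 1.95 FPKM in LALA nuclear, 0.778 FPKM in siPAP nuclear, 2.82 FPKM in control nuclear, 0.494 FPKM in siPAP total and 1.76 FPKM in control total RNA. Its siPAP levels were 0.276-fold of control in nuclear and 0.280-fold in total RNA. SLC39A4, a zinc transporter gene beside that span, was at 0.656-fold of control in LALA nuclear, 0.583-fold in siPAP nuclear and 0.572-fold in siPAP total RNA. An unnamed locus within 5000 bases of CPSF3, assembled over the same span as IAH1 and ADAM17, had 5.31 FPKM in LALA nuclear, 6.03 FPKM in siPAP nuclear, 1.97 FPKM in control nuclear, 3.98 FPKM in siPAP total and 0.948 FPKM in control total RNA. IAH1 itself was at 0.817-fold of control in LALA nuclear, 0.593-fold in siPAP nuclear and 0.544-fold in siPAP total RNA. ADAM17 was at 0.983-fold in LALA nuclear, 1.19-fold in siPAP nuclear and 1.32-fold in siPAP total RNA. SFT2D3, next to the 3′ end of WDR33, was at 1.60-fold of control in LALA nuclear, 1.61-fold in siPAP nuclear and 1.35-fold in siPAP total RNA. In GENCODE the canonical WDR33 transcript, on the minus strand, runs across that neighbouring locus. By its assembly number SFT2D3 falls in the run of CPSF3, a plus-strand gene, and so appears to lie on the other strand. WDR33 itself was at 0.862-fold in LALA nuclear, 1.06-fold in siPAP nuclear and 1.00-fold in siPAP total RNA. AURKA, next to CSTF1, lay between 0.776-fold and 0.824-fold of control, below CSTF1 in each comparison.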
